A study of Mus musculus with 31 samples.

Results

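The heat shock chaperone genes Hspa1a, Hspa1b, Hspb1, Dnajb1, Hsph1, Hspa8, Hsp90aa1, Dnaja1 and Hspd1 and the co-chaperone gene Bag3 were taken by name as a list of 10 genes. A probe was found for 9 of them, out of 19902 named genes on the array, and Hspa1b was not analysed here. RNA came from the ipsilateral forebrain hemisphere, without the olfactory bulb, of NMRI mouse pups aged 5 days, each sample being a pool of 6 animals. Each of 31 two-color arrays compared a Cy3 and a Cy5 sample. In Experiment 1, mice given MgSO4 at 600 mg/kg (Mg, Cy5) were compared with controls (Ctrl, Cy3) after injection, with 4 arrays for 3 h, 7 for 6 h, 4 for 12 h and 4 for 24 h. The labels give a subcutaneous route and controls injected with PBS, whereas the methods give an intraperitoneal route and controls without intervention. In Experiment 3, mice subjected to hypoxia-ischemia (HI, Cy5), that is right carotid ligature under isoflurane anesthesia followed by hypoxia, were compared with controls (Cy3), using 3 arrays for 3 h and 3 for 12 h after the end of hypoxia. HI mice differed from controls in anesthesia and surgery as well, and these cannot be told apart from hypoxia and ischemia. The MgHI arrays of Experiment 2, of the same numbers and times, concern MgSO4 given before HI, and their channels do not have a settled order, as described below. No dyes were swapped.

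Heat shock chaperones hold unfolded proteins in solution or refold them with ATP, and heat shock factor 1 drives their stress-inducible genes by binding repeats of a short motif at promoters called heat shock elements. Inducible Hsp70 (Hspa1a, Hspa1b) and the small heat shock protein Hsp27 (Hspb1) are known as stress markers of the injured brain. Members such as Hspa8 and Hsp90aa1 are abundant also in unstressed neurons.

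The windows from 250 bases before to 50 bases after the transcription start, from RefSeq on GRCm38.p6, were read for 8 of the 10 genes, with several windows where a gene has several starts. A search on both strands used the letters GAANNTTC and TTCNNGAA, which hold 2 inverted units of the heat shock element. At least 1 match was found in 7 of the 8 genes, against 17.0% of 27025 genes with a window. The longer letters GAANNTTCNNGAA and TTCNNGAANNTTC hold 3 units and include the shorter matches. They were found in Hsph1 and Hspd1, 2 of the 8 genes, against 0.662% of all genes. Dnajb1 had no match in either of its windows. Shown are the 3 genes called after HI at 3 h, with matches in capitals, and both genes with 3 units, with those matches in capitals.
Hspa1a, chr17:34972107-34972406, minus strand: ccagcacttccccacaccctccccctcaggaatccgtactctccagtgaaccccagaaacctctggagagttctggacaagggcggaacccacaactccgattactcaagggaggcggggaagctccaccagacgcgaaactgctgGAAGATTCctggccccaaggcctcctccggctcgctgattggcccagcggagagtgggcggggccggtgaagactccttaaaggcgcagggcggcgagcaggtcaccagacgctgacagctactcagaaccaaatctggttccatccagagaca
Hspb1, chr5:135887669-135887968, plus strand: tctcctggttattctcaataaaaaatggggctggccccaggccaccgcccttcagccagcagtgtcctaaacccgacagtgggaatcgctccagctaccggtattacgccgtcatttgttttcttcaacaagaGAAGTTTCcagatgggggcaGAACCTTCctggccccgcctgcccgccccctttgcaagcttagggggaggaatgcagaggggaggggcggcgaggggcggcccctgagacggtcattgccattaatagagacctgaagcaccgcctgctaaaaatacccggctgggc
Bag3, chr7:128523333-128523632, plus strand: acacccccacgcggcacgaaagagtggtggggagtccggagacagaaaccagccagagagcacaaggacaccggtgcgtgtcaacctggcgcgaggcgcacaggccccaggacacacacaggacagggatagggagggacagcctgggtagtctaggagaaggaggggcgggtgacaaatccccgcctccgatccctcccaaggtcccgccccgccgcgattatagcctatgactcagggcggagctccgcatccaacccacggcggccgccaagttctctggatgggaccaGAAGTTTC
Hspd1, chr1:55087883-55088182, minus strand: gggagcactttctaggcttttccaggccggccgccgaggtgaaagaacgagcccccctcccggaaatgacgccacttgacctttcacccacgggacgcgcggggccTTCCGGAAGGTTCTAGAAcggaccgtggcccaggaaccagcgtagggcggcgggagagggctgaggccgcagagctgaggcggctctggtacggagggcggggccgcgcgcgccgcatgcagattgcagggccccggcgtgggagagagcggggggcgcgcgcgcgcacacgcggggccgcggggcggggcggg
Hsph1, chr5:149636287-149636586, minus strand: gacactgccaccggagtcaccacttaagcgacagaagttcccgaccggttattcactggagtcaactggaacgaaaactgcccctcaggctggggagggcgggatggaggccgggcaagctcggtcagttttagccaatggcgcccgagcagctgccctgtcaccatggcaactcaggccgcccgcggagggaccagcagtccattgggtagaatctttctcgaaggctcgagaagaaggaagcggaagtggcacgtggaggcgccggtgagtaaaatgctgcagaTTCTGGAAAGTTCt
The match began 104 bases before the start in Hspa1a, 117 and 97 bases before it in Hspb1, and 42 bases after it in Bag3. In Hspd1 the matches of 3 units began 144 and 139 bases before the start, and in Hsph1 the match began 36 bases after it. The windows of Hspa1a and Hspb1 thus held matches of 2 units only, as did that of Bag3. The Hspa1b window differed from that of Hspa1a at 4 of 300 bases. These genes are near-identical copies, the probe sequences were not used here, and whether the Hspa1a probe also detected Hspa1b transcripts is uncertain.

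Values below are log2 ratios of Cy5 over Cy3, each from the brightest probe of a gene. A change was called where its fold was at least 1.5 and its limma p, adjusted by Benjamini-Hochberg across every probe of the comparison, was under 0.05. Between 45.2% and 69.7% of spots were well above background in Cy3 and between 54.4% and 70.2% in Cy5. Hspa1a was the dimmest of the 9 genes, well above background on 27 of 31 arrays in Cy3 and on 26 in Cy5. At 6 h after MgSO4, replicates 3 and 7 stood apart: over all probes they correlated with replicates 1, 2 and 6 at −0.42 to −0.22, and the direction of the 6 h ratios is therefore not settled. The treatment label of the HI samples names MgSO4, against their titles and sources, and HI without MgSO4 was assumed. On the MgHI arrays the labels name Mg-treated naive mice as the Cy3 sample and the methods an HI sample, and at 3 h this Cy3 channel carried Fos, an immediate early gene, 5.64 log2 units above control channels, against the naive label. Every sample is bulk RNA, so fewer cells of a type and less RNA per cell cannot be told apart. The labels call the arrays biological replicates.

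At 3 h after HI, Hspa1a, Hspb1 and Bag3 rose, and the other 6 genes did not pass the test. Thus 3 of 9 genes were called, all as inductions, where 3.79% of 18922 probes were called in either direction. The genes were listed with earlier results of these data known, so these shares are not an independent comparison. The median ratio of the 9 genes was 0.12, against −0.03 over all genes. Hspa1a, the stress-inducible Hsp70 gene, had ratios of 1.5, 1.92 and 2.25 on the 3 arrays, all above the highest ratio of any Mg array, 0.83. Its mean was 1.89 (SE 0.16, 95% interval 1.5 to 2.28, n = 3), a 3.71-fold induction with an adjusted p of 0.0124 by limma. Hspb1, encoding Hsp27, which binds unfolded proteins without ATP, had ratios of 0.82, 0.67 and 0.75. The 3 arrays were close to each other, with a mean of 0.75 (95% interval 0.58 to 0.91, n = 3), a 1.68-fold induction, adjusted p = 0.0124. Bag3, a nucleotide exchange factor of Hsp70 that couples it to autophagy, had ratios of 1.01, 0.34 and 0.65. Its mean of 0.67 (95% interval 0.32 to 1.02, n = 3), a 1.59-fold induction, gave an adjusted p of 0.0417.

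The Bag3 call was lost without replicate 1 (mean 0.49, adjusted p = 0.0728) or without replicate 3 (mean 0.68, adjusted p = 0.0839), or in 1 fit over all groups (adjusted p = 0.189). It was also lost with other background corrections, where only the fold was under the threshold. The limma mean of Bag3 was 0.51 without background subtraction (adjusted p = 0.00307) and 0.44 with normexp (adjusted p = 0.00522). The size of the Hspa1a induction depended on the background correction, its mean being 1.23 without background subtraction and 0.89 with normexp, both called. With no filter on dim probes none of the 3 passed, the adjusted p of Hspa1a and of Hspb1 both being 0.0551 and that of Bag3 0.107.

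**Figure D1:**
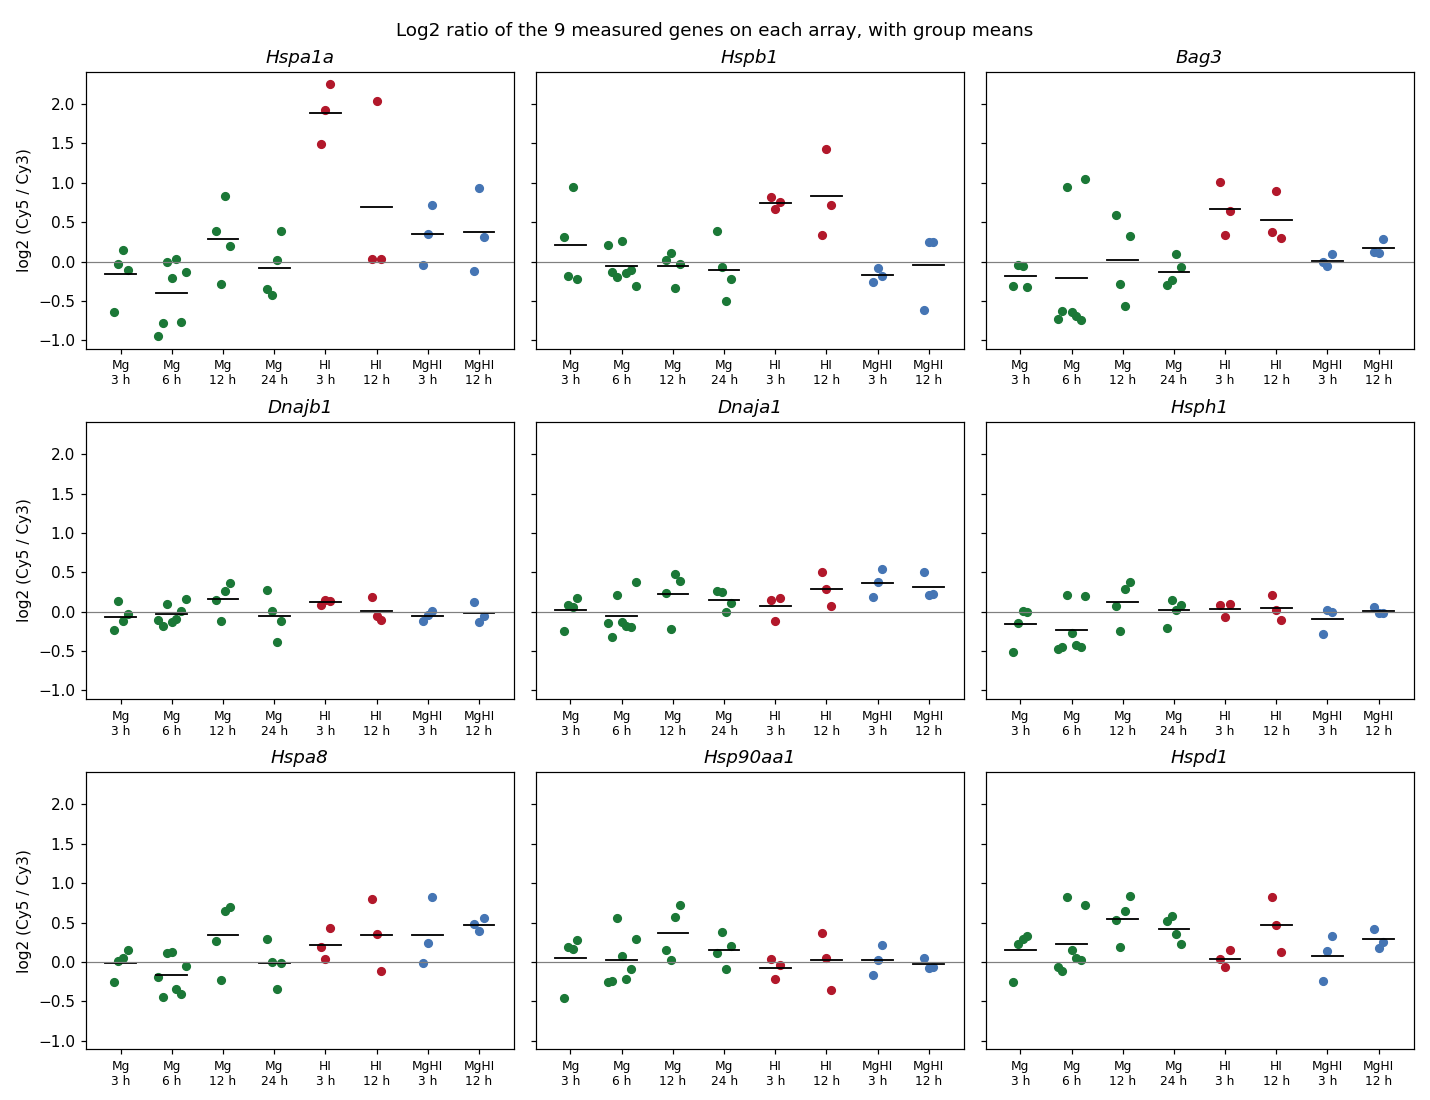
Log2 ratio of Cy5 over Cy3 of the 9 measured genes on each of the 31 arrays, 1 panel per gene, with arrays grouped by experiment and time on the horizontal axis and the mean of each group as a horizontal line. The 3 Hspa1a values at 3 h after HI lie between 1.5 and 2.25, whereas at 12 h 1 array lies at 2.03 and the other 2 at 0.03.

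Each of the other 6 genes had a mean ratio at 3 h after HI between −0.07 and 0.22. Dnajb1, the J-domain partner of inducible Hsp70, had ratios of 0.08, 0.15 and 0.14 and a mean of 0.12 (95% interval −0.03 to 0.28, adjusted p = 0.206, n = 3). The upper limit of that interval lies below the 0.58 that marks 1.5-fold. Dnaja1, another J-domain gene, had a mean of 0.07 (95% interval −0.15 to 0.28). Hsph1, the Hsp110 gene whose product is a nucleotide exchange factor of Hsp70, had ratios of 0.08, −0.07 and 0.10 and a mean of 0.04 (95% interval −0.14 to 0.21). Its window holds a motif of 3 units, as shown above. Hspa8, the constitutive Hsp70 of the cytosol, had ratios of 0.19, 0.04 and 0.43, the last being the highest of the 18 values of these 6 genes. The mean of Hspa8 was 0.22 (95% interval −0.02 to 0.46, adjusted p = 0.161). Its limma mean was 0.40 without background subtraction (adjusted p = 0.00597) and 0.39 with normexp (adjusted p = 0.00649), both under the threshold of fold. Hsp90aa1, a cytosolic Hsp90, had a mean of −0.07 (95% interval −0.27 to 0.12), and Hspd1, the mitochondrial chaperonin Hsp60, a mean of 0.04 (95% interval −0.14 to 0.22). With the main processing, the intervals of the brightest probes of all 6 genes thus lie within 1.5-fold in both directions.

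**Figure D2:**
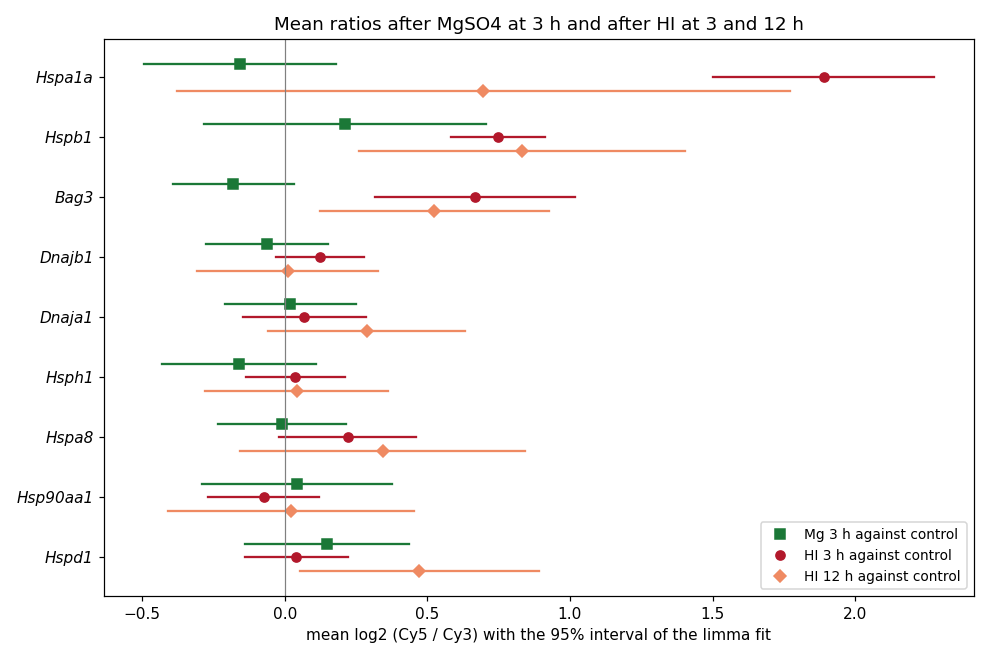
Mean log2 ratio of each gene (horizontal axis) with the 95% interval of the limma fit (bars), at 3 h after MgSO4 (4 arrays, squares), at 3 h after HI (3 arrays, circles) and at 12 h after HI (3 arrays, diamonds). At 3 h after HI the interval of Hspa1a runs from 1.5 to 2.28, while those of the 6 genes in the lower rows all include 0.

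Among related genes at 3 h after HI, no call was made in 9 other Hsp70 and Hsp110 genes, 14 other Hsp90 genes and co-chaperones, 14 other J-domain genes, 5 other small heat shock protein genes, 9 other BAG family and nucleotide exchange genes, 9 chaperonin genes or 3 heat shock factor genes tested. Of 15 unfolded protein response genes of the endoplasmic reticulum, only the transcription factor gene Atf4 was called, at 0.75. The medians of these 8 lists lay between −0.09 and 0.19. In the same samples 13 of 14 immediate early genes rose, with the largest ratios for Fos (5.52), Fosb (3.63) and Atf3 (3.57), all encoding transcription factors. Of 15 hypoxia response genes 5 rose, among them Adm (2.18), encoding the vasodilator adrenomedullin, the glucose transporter gene Slc2a1 (1.12) and Vegfa (1.09), an angiogenic factor. Of other cell type lists, 2 of 8 blood markers rose, the neutrophil genes S100a8 (1.09) and S100a9 (0.82), and 1 of 8 oligodendrocyte markers, the myelin gene Mbp (0.61). None of the astrocyte, microglia, endothelial, neuron or choroid plexus markers was called. All 8 blood markers were well above background in the control channel of each HI array, and their median ratio was −0.02, 0.32 and 0.39 on the 3 arrays. Their part in the ratios of the chaperone genes was not tested.

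At 12 h after HI, none of the 9 genes was called by limma, where 0.0106% of 18930 probes were called. An unadjusted p under 0.05 was found for 3 of the 9 and for 5215 of the 18930 probes, so this count is near the share over all probes. All 9 had a mean ratio above 0. The median of the 9 genes was 0.34, against 0.00 over all genes. Hspa1a had ratios of 0.03, 2.03 and 0.03. Replicate 2 was thus as high as the arrays at 3 h, and the other 2 showed no difference between channels. The mean of 0.70 (95% interval −0.38 to 1.77, adjusted p = 0.330, n = 3) fell to 0.03 without replicate 2. Hspb1 had ratios of 0.34, 1.43 and 0.72, again highest on replicate 2, with a mean of 0.83 (95% interval 0.26 to 1.40, adjusted p = 0.106). It was called without replicate 1 (1.08, adjusted p = 0.0282), where 4.31% of all probes were called, or without replicate 3 (0.89, adjusted p = 0.0269), where 18.2% were called. Its mean was 0.53 without replicate 2 (adjusted p = 0.596). Bag3 had ratios of 0.38, 0.89 and 0.30, a mean of 0.53 (95% interval 0.12 to 0.93, adjusted p = 0.122), and it too was among the 18.2% of probes called without replicate 3 (0.64, adjusted p = 0.0326).

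Replicate 2 at 12 h stood apart in other lists as well. The median ratio of the immediate early genes was 0.38, 0.88 and 0.00 on replicates 1, 2 and 3. That of the choroid plexus markers was 0.48, 1.16 and 0.56, and that of the blood markers −0.25, 0.82 and 0.50. Each of these was highest on replicate 2, like Hspa1a, Hspb1 and Bag3, and their part in the ratios of these genes was not tested. Hspd1, Hspa8 and Dnaja1 had another order. Hspd1 had ratios of 0.82, 0.47 and 0.13, a mean of 0.47 (95% interval 0.05 to 0.89, adjusted p = 0.151), and it was also among the 18.2% of probes called without replicate 3 (0.64, adjusted p = 0.0258). Hspa8 had ratios of 0.80, 0.35 and −0.12, a mean of 0.34 (95% interval −0.16 to 0.84). Dnaja1 had ratios of 0.51, 0.28 and 0.07. These 3 genes were highest on replicate 1 and lowest on replicate 3. The median ratio of the oligodendrocyte markers had the same order, at 0.53, 0.46 and 0.29, with 7 of 8 markers above 0 on average. That of the neuron markers was highest on replicate 1 as well, at 0.41, 0.26 and 0.31, with 9 of 10 above 0, and the part of both lists in these ratios was not tested. The means of Hsph1 (0.04), Hsp90aa1 (0.02) and Dnajb1 (0.01) were close to 0.

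Between 12 and 3 h after HI, 0 of 9 genes and 0% of 19326 probes were called by limma. None of the 9 had an unadjusted p under 0.05, against 3299 of the probes. The Hspa1a ratio was lower at 12 h by a mean difference of −1.19 (95% interval −2.49 to 0.11, adjusted p = 0.326, 3 arrays each), with the groups overlapping through replicate 2 at 12 h. Without that array the difference was −1.86 (adjusted p = 0.186). On the slide that held arrays of both times, 1 array each, it was −2.22. For Hspb1 and Bag3 the differences were 0.08 (95% interval −0.55 to 0.72) and −0.14 (95% interval −0.69 to 0.40), and for Hspd1 0.43 (95% interval −0.02 to 0.88).

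After MgSO4 alone, no gene of the 9 was called at any time with all arrays. The share of probes called was 0% of 18652 at 3 h, 0.0283% of 17642 at 6 h, 0% of 17872 at 12 h and 0.00554% of 18036 at 24 h. The number of the 9 genes with an unadjusted p under 0.05 was 0, 1, 1 and 1 at these times, and it was Hspa1a at 6 h and Hspd1 at 12 and 24 h. Over all probes tested it was 1683, 2326, 2800 and 1999. At 6, 12 and 24 h the count of the 9 genes was thus near the share over all probes. At 3 h, Hspa1a had ratios of −0.64, −0.03, 0.15 and −0.11, a mean of −0.16 (95% interval −0.49 to 0.18, n = 4), and these did not overlap with the HI arrays of the same time. Bag3 had ratios of −0.31, −0.04, −0.06 and −0.32, below 0 on all 4 arrays, with a mean of −0.18 (95% interval −0.39 to 0.03, adjusted p = 0.577). Hspb1 had ratios of 0.31, −0.18, 0.94 and −0.23. On replicate 3 its spot was not well above background in either channel, and without that array the mean went from 0.21 to −0.03. At 12 h the Hspa1a ratios were 0.38, −0.28, 0.83 and 0.19, and at 24 h −0.35, −0.42, 0.02 and 0.39, with both signs at each time.

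Hspd1 was above 0 on all 4 arrays at 12 h, with ratios of 0.53, 0.18, 0.64 and 0.83, and on all 4 at 24 h, with 0.52, 0.58, 0.36 and 0.23. The means were 0.55 (95% interval 0.22 to 0.88, adjusted p = 0.305, n = 4) and 0.42 (95% interval 0.18 to 0.66, adjusted p = 0.317, n = 4), and neither was called. Hsp90aa1 was above 0 on all arrays at 12 h too, at 0.15, 0.02, 0.57 and 0.72, while Hspa8 was at 0.27, −0.23, 0.65 and 0.70. On replicates 3 and 4 of that time these 3 genes lay together above 0.5. The median ratio of the neuron markers was 0.34, −0.11, 0.45 and 0.55 on replicates 1 to 4, with all 10 markers above 0 on average. That of the oligodendrocyte markers was 0.08, −0.19, 0.29 and 0.43. Both lists were lowest on replicate 2 and highest on replicates 3 and 4, like Hspd1, Hsp90aa1 and Hspa8, and their part in these ratios was not tested.

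At 6 h the ratios of Bag3 were −0.73, −0.62, 0.94, −0.64, −0.69, −0.74 and 1.05 for replicates 1 to 7. The 5 arrays other than replicates 3 and 7 thus lay between −0.74 and −0.62, and these 2 arrays at 0.94 and 1.05. Over all 7 arrays the mean was −0.20 (95% interval −0.80 to 0.39, adjusted p = 0.771). Without replicates 3 and 7 it was −0.68 (adjusted p = 0.0113) and Bag3 was called, as were 8.43% of probes. With the sign of both arrays turned it was −0.77 (adjusted p = 0.00314), where 8.46% of probes were called. These 2 arrays were picked because they ran opposite to others. Leaving them out or turning them thus brings the arrays together by construction, and no p obtained this way is support for a change at 6 h. Hsph1 split in the same way, with −0.47, −0.44, −0.27, −0.42 and −0.45 on the 5 arrays and 0.21 and 0.20 on replicates 3 and 7. Its mean of −0.23 went to −0.41 without them (adjusted p = 0.0223), under the threshold of fold. Hspd1 had 0.83 and 0.72 on replicates 3 and 7 and lay between −0.11 and 0.15 on the others. Hspa1a had −0.95, −0.78, −0.21, 0.03 and −0.77 on replicates 1, 2, 4, 5 and 6, and 0.00 and −0.13 on replicates 3 and 7, on both of which its spot was not well above background in either channel. Its mean was −0.40 (95% interval −0.73 to −0.07, adjusted p = 0.310, n = 7). Replicates 3 and 7 shared a slide that held no other 6 h array, so slide and samples cannot be told apart here. On them 49.9% and 45.2% of spots were well above background in Cy3, the 2 lowest values of the 31 arrays, and 56.0% and 56.6% in Cy5.

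**Figure D3:**
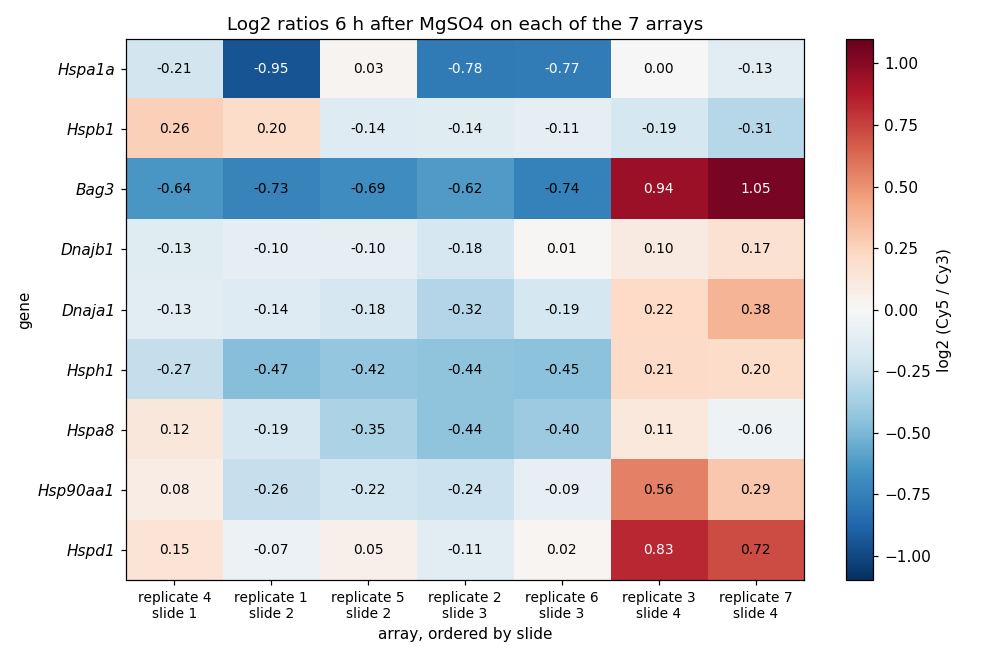
Heat map of the log2 ratio of Cy5 over Cy3 (color and printed value) of each measured gene (rows) on the 7 arrays at 6 h after MgSO4 (columns, ordered by slide). For Bag3, replicates 3 and 7 in the right columns lie at 0.94 and 1.05 and the other 5 arrays between −0.74 and −0.62.

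A test over the 4 times after MgSO4 called 0 of 9 genes and 0% of 19309 probes by limma. None of the 9 genes was at an unadjusted p under 0.05, against 815 of the probes. With the sign of replicates 3 and 7 at 6 h turned, Bag3 (adjusted p = 0.0179) and Hspd1 (adjusted p = 0.0348) were called, as were 12.1% of probes. This turn was chosen after seeing the data and makes the 6 h arrays alike by construction. These calls therefore do not show a difference between the times.

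The ratio at 3 h after HI was then compared with that at 3 h after MgSO4. Of the 9 genes 1 was called, Hspa1a, where 0.631% of 19478 probes were called. The Hspa1a ratios differed by 2.05 (95% interval 1.51 to 2.58, adjusted p = 0.0156), a 4.13-fold difference, with the 3 HI arrays between 1.5 and 2.25 and the 4 Mg arrays between −0.64 and 0.15. This call was lost without HI replicate 2 (2.03, adjusted p = 0.0723), HI replicate 3 (1.87, adjusted p = 0.0583), Mg replicate 2 (2.09, adjusted p = 0.0506) or Mg replicate 4 (2.06, adjusted p = 0.0631), with differences between 1.87 and 2.24 over the 7 arrays left out in turn. The size depended on the background correction, being 1.26 without background subtraction and 0.89 with normexp, both called. The Bag3 difference was 0.85 (95% interval 0.46 to 1.24, adjusted p = 0.0914) and that of Hspb1 0.54 (95% interval −0.09 to 1.16, adjusted p = 0.387), and neither was called with the main processing. Both were called without background subtraction, at 0.65 and 0.72. The Hspb1 difference includes Mg replicate 3, whose spot was not well above background in either channel. It ranged from 0.39 to 0.78 over the alternatives. No slide held arrays of both experiments, so slide and experiment cannot be told apart here. At 12 h, 0 of 9 genes and 0.0366% of 19148 probes were called by limma. An unadjusted p under 0.05 was found for 2238 of these probes and, at a similar share, for 1 gene. This was Hspb1, with a difference of 0.89 (95% interval 0.29 to 1.5, adjusted p = 0.301).

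The MgHI arrays set MgSO4 given before HI against a reference that the sources describe in more than 1 way, as stated above. The labels and methods place MgHI in Cy5 while the study elsewhere places it in Cy3, so ratios are given by channel. At 3 h, 0 of 9 genes were called on their brightest probe by limma, where 7.62% of 19259 probes were called. An unadjusted p under 0.05 was found for 5810 of these probes and for 1 gene, Dnaja1. The genes induced by HI had small ratios here: Hspb1 had −0.26, −0.08 and −0.19, a mean of −0.18 (95% interval −0.42 to 0.07, n = 3), and Bag3 −0.00, −0.06 and 0.10, a mean of 0.01 (95% interval −0.23 to 0.25). Hspa1a had ratios of −0.04, 0.35 and 0.72, a mean of 0.34 (95% interval −0.05 to 0.74, adjusted p = 0.212). Dnaja1 was higher in Cy5 on all 3 arrays, at 0.19, 0.37 and 0.54, a mean of 0.37 (95% interval 0.09 to 0.64, adjusted p = 0.0907). Of related genes, the endoplasmic reticulum chaperone gene Hyou1 was called higher in Cy5, by 1.13.

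At 12 h, 0 of 9 genes and 0% of 19271 probes were called on the MgHI arrays by limma. An unadjusted p under 0.05 was found for 5132 of these probes and, at a similar share, for 3 genes. These were Hspa8, with ratios of 0.48, 0.39 and 0.56 and a mean of 0.47 (95% interval 0.23 to 0.72, adjusted p = 0.0855, n = 3), Dnaja1 with a mean of 0.31 (95% interval 0.04 to 0.59, adjusted p = 0.156), and Hspd1 with a mean of 0.29 (95% interval 0.02 to 0.55, adjusted p = 0.166). All 3 were higher in Cy5 on every array. Hspa1a had −0.12, 0.93 and 0.31, and Hspb1 −0.62, 0.25 and 0.25, with both signs. Between the MgHI arrays of 12 and 3 h, 0 of 9 genes and 0% of 19646 probes were called by limma. None of the 9 was at an unadjusted p under 0.05, against 830 of the probes.

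The 3 probes of Hspa8 did not agree on the MgHI arrays. The dimmest had ratios of 1.43, 1.45 and 1.33 at 3 h, a mean of 1.41 with an adjusted p of 0.00767, and was called higher in Cy5. At 12 h it had 1.77, 1.69 and 0.53, a mean of 1.33 (adjusted p = 0.0832). On the HI arrays the same probe lay between −0.70 and 0.26. The second probe had a mean of 0.24 at both times on the MgHI arrays and was not called, and the brightest had 0.35 and 0.47. Which transcripts each probe detects is not given in the sources used here. The dimmer probe of Dnaja1 had the opposite sign to the brightest on the MgHI arrays, at −0.15 and −0.16, and at both times after HI. At 12 h after HI it was at −0.38. At 3 h after HI the mean over both Dnaja1 probes was −0.07, against 0.07 for the brightest. The second Hsph1 probe was at 0.28 on the MgHI arrays of 3 h, where the brightest was at −0.09.

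**Figure D4:**
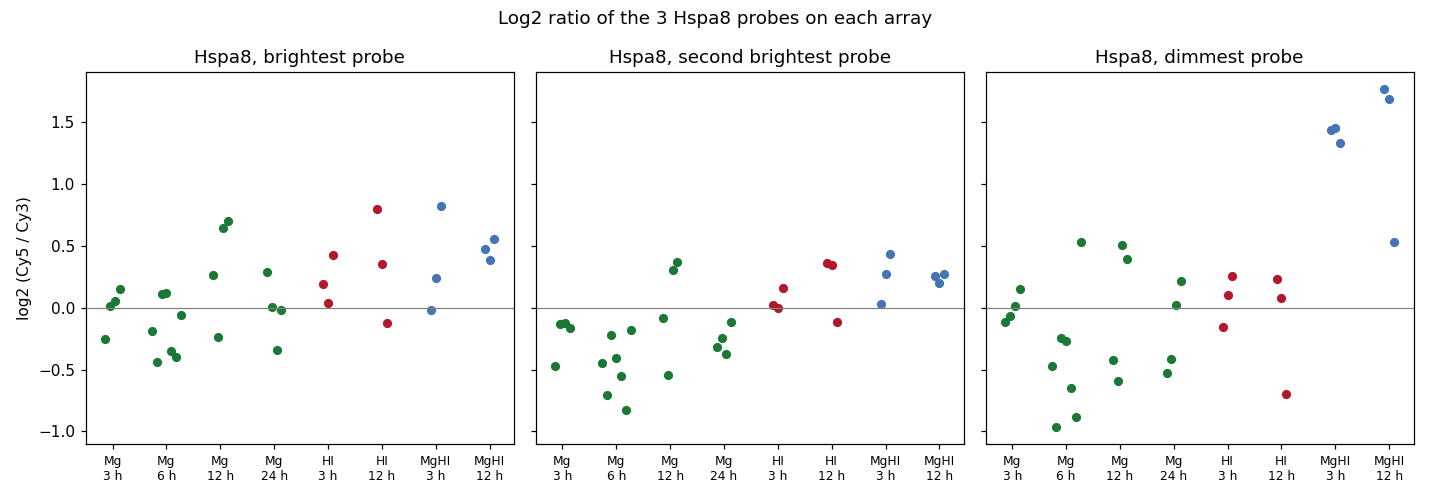
Log2 ratio of Cy5 over Cy3 of the 3 Hspa8 probes on each array, 1 panel per probe from brightest to dimmest, with groups on the horizontal axis and 1 point per array. The dimmest probe lies between 1.33 and 1.45 on the MgHI arrays of 3 h, while the brightest lies between −0.02 and 0.82 there.

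Single channels were compared for the Cy3 sample of the MgHI arrays, as log2 level relative to the 75th percentile of the channel. At 3 h the Hspa1a level was −3.65 ± 0.38 (SD, n = 7) in the control Cy3 channels of Experiments 1 and 3, ranging from −3.95 to −2.85. It was −1.82 ± 0.19 (n = 3) in the Cy5 channel of the HI arrays. On the MgHI arrays it was −1.81 ± 0.30 (n = 3) in Cy3 and −1.45 ± 0.20 (n = 3) in Cy5. All 9 channels of HI and MgHI arrays other than the controls thus lay above all 7 control channels. The Cy3 channel of the MgHI arrays exceeded the controls by 1.85 (95% interval 1.31 to 2.38, adjusted p = 0.0109 by limma), a 3.59-fold difference. Hspa1a was the only 1 of the 9 genes called, where 0.4% of 19006 probes were called. The call was lost without MgHI replicate 1 (1.76, adjusted p = 0.0776) or replicate 2 (1.75, adjusted p = 0.0602), and without background subtraction or with normexp (0.77, adjusted p = 0.358). Against only the Experiment 3 controls, hybridized on the same slides as the MgHI samples, with the slide as a block, the difference was 1.91 (adjusted p = 0.00149). With the replicate number as a block in place of the slide it was 1.91 too (adjusted p = 0.00414), with 167 probes called, against 76 with all controls and no block. For Bag3 the difference was 0.73 (95% interval 0.36 to 1.1, adjusted p = 0.128). In this channel 9 of 14 immediate early genes and 2 of 15 hypoxia response genes, Adm (1.49) and Hk2 (1.43), also exceeded the controls.

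Hspb1 levels depended on the experiment. In the control channels of 3 h they lay between −0.16 and −0.07 on 3 Mg arrays, at −5.34 on Mg replicate 3, where the spot was not above background, and between 1.12 and 1.30 on the HI arrays. The difference of the MgHI Cy3 channel from the controls, 2.13 (95% interval −0.57 to 4.84, adjusted p = 0.454), was 0.64 with the controls of Experiment 3 alone and 3.25 with those of Experiment 1 alone. At 12 h, 0 of 9 genes were called in this comparison by limma, where 0.0322% of 18613 probes were called. An unadjusted p under 0.05 was found for 5547 of these probes and for 2 genes. These were Hspb1 at 1.77 (adjusted p = 0.122) and Hspd1 at 0.65 (adjusted p = 0.151). The Hspa1a difference at 12 h was 0.50 (95% interval −0.18 to 1.18). The 12 h differences of these genes depended on the controls as well. Mean Hspb1 levels then were 1.91 in the MgHI Cy3 channel, 1.33 in the HI-array controls and 0.14 over all 7 controls. Those of Hspd1 were 4.05, 3.87 and 3.40, and those of Hspa1a −3.32, −3.55 and −3.81. For each gene the MgHI Cy3 mean thus lay closer to the HI-array controls than to the pooled controls.

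**Figure D5:**
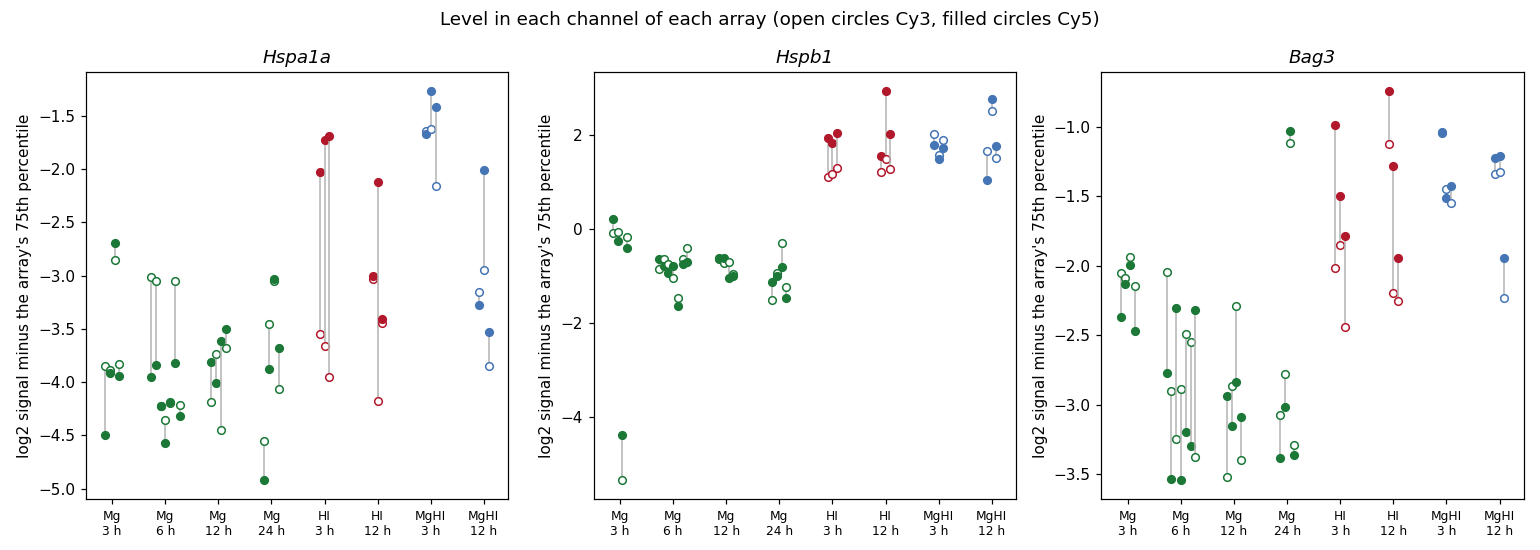
Log2 level of Hspa1a, Hspb1 and Bag3 relative to the 75th percentile of the channel (vertical axis), with open circles for Cy3 and filled circles for Cy5 of the same array joined by a line, by group. The controls are the Cy3 channels of the Mg and HI arrays. At 3 h their Hspa1a level is between −3.95 and −2.85, and both channels of the MgHI arrays lie between −2.16 and −1.27.

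Across the 31 arrays, and as a description over all 8 groups, several of which share slides, the highest Pearson correlations among the 9 genes were 0.865 for Hsp90aa1 with Hspd1, 0.841 for Hspa8 with Dnaja1 and 0.797 for Hsph1 with Hspd1. Over all arrays Hspa1a correlated best with Bag3 (0.590) and Hspb1 with Hspa1a (0.533), but not within both sets of arrays. On the 19 Mg arrays Hspa1a correlated best with Hsph1 (0.742), against 0.384 with Bag3 and −0.227 with Hspb1. On the 12 HI and MgHI arrays Hspa1a correlated best with Hspb1 (0.721), and Hspb1 with Bag3 (0.822). Over all arrays Dnajb1 correlated best with Hsp90aa1 (0.634). Among 13944 genes, those whose ratios were most like the mean ratio of the 9 genes over 31 arrays included Mbp (0.897), Ddx17 (0.886), Clu (0.868) and Aplp2 (0.851).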

How the data were processed

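The 2-color intensities were deposited for 31 arrays, extracted by the authors with Feature Extraction 10.5.1.1 as background-subtracted, LOWESS-normalized processed intensities, beside uncorrected median intensities. The deposited series table holds log10 ratios and served as an alternative. Log2 ratios of Cy5 over Cy3 were taken per probe without flagged spots. A probe was tested where Cy3 or Cy5 was well above background on 66.7% of a group's arrays or more, with limma 3.58.1 (R 4.3.3). RefSeq accessions gave 1 symbol to 27427 of 39429 probes. Each symbol was represented by its brightest probe, and 930 Rik symbols were left out. HI and Mg ratios, times, and single channels were compared in fits of the groups concerned. The number of arrays limits precision. Members and lists were chosen with earlier results of these data known. The named genes were all members, up to 3 called genes with the largest ratio per other list, and the genes most like the members, of which 1 is not reported here. Fits were tested on simulated data. Same-numbered HI and MgHI arrays of 3 h deviated together (correlations of 0.32, 0.24 and 0.32), each correlating best with its own number. The labels name no shared source and these arrays shared slides, so whether they were paired is not settled. The replicate number as a block was therefore used only as an alternative. Alternatives covered background correction, filter, probes, flags, slide, replicate block, the methods' t-test and arrays left out in turn. Turning the sign of the 6 h replicates 3 and 7 was chosen after seeing the data.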

Additional observations from a re-analysis of the deposited data

Results flagged for a closer look

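At 3 h after MgSO4, replicate 1 lay below the other 3 arrays by more than the spread among those for Hsp90aa1, at −0.45 against 0.16 to 0.28, and for Hspd1, at −0.26 against 0.23 to 0.32. These were 2 of 36 gene and group combinations examined for a single distant array, of which chance gives about 1 in 20. The Hspa1a ratio differed between HI and MgSO4 at 3 h by 2.05 in a test of the difference itself (adjusted p = 0.0156 by limma), being higher than 0 on 3 of 3 HI arrays and on 1 of 4 Mg arrays.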

How the results depend on the processing

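Of 971 recomputed gene ratios, 949 kept their side of the threshold, 12 lost and 10 gained a call, none of those called changed sign, and 55 uncalled ones did. At 3 h after HI, 3 genes were called, against 0 without the filter on dim probes and 0 with the methods' t-test after Benjamini-Hochberg adjustment, which called 2 at unadjusted p. At 12 h after HI 1 gene (Hspb1) was called in 1 fit over all groups, with 5.85% of probes called, and that fit lost Bag3 at 3 h. On the MgHI arrays 1 gene (Hspa8) was called at 3 h with the mean over all probes, and 1 (Hspa8) at 12 h without background subtraction and also 1 with normexp. For HI against Mg at 3 h, 3 genes were called without background subtraction, 2 with normexp and 2 with the slide as a random block. For the Cy3 channel of the MgHI arrays at 3 h, 0 genes were called without background subtraction or with normexp, 3 with the controls of Experiment 1 alone (11% of probes called) and 2 for the Cy5 channel (1.74%), against 0.4% of probes with all controls. At 12 h 3 were called with the controls of Experiment 1 alone, where 43.6% of probes were called. At 6 h after MgSO4 1 gene (Bag3) was called without replicates 3 and 7 or with their sign turned, and 2 genes over the 4 times with the sign turned. Both arrays were picked by their direction, so these calls lend no support to a change. The causes were not tested.

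Leaving out each array in turn gave 2 to 3 genes at 3 h after HI (293 to 727 over all probes), 0 to 3 at 12 h after HI (18 to 3330), 0 to 1 for HI against Mg at 3 h (29 to 128), 0 to 1 for the Cy3 channel at 3 h (13 to 182), and 0 elsewhere. Same-numbered arrays did not deviate together between the times of HI (correlations of −0.27, −0.06 and −0.23) or of MgHI (−0.44, 0.05 and −0.03), nor throughout between HI and Mg at 3 h (0.17, 0.10 and 0.03) or 12 h (−0.17, −0.10 and −0.26). Between HI and MgHI at 12 h the correlations were 0.45, 0.06 and 0.37, each array correlating best with its own number, as at 3 h. With the replicate number as a block, the number of the 9 genes called stayed at 0 between the times of HI, of MgHI and of Mg, at 1 for HI against Mg at 3 h (all probes 16, against 123), at 0 at 12 h (all probes 0, against 7), at 1 for the Cy3 channel at 3 h (all probes 167, against 76) and at 0 at 12 h (all probes 0, against 6). The slide as a random block could not be fitted for Mg at 12 and 24 h, for HI and MgHI at either time, or for HI against Mg at 12 h.

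Groups of 3 or 4 arrays, controls that lacked anesthesia and surgery, and the absence of dye swaps limit these values. Dim spots limit Hspa1a most, as its fold depended on background correction.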
